A study of Mus musculus with 2 samples.

Results

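The miR-34/miR-449 family of mouse comprises 6 microRNA genes at 3 loci: Mir449a, Mir449b and Mir449c on chromosome 13, Mir34b and Mir34c on chromosome 9, and Mir34a on chromosome 4. They were taken from the tables by gene name, and all 6 of the 6 were among the 1973 microRNA genes listed. Small RNA (under 30 bases, per the labels) was sequenced from whole lungs of B6NCrl mouse embryos at 16.5 days. The samples form 1 group of 2 libraries, called replicate 1 and replicate 2, each a pool of lungs from healthy embryos of both sexes. Replicate 2 pooled 41 embryos, and the number in replicate 1 is not given in the sources used here. No treatment or genotype separates them, so the comparisons are among the members, among the loci and between the libraries.

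MicroRNAs of this family are best known from multiciliated cells, the airway cells that carry many motile cilia, which begin to form in the conducting airways before birth. In those cells they repress proteins that hold back the formation of cilia. Mice lacking both the Mir449 and the Mir34b/c loci have airways with few cilia. Mir34a is expressed more broadly and is induced by the tumour suppressor p53. A microRNA finds its targets mainly through its seed, bases 2 to 8 of the mature strand, so members with one seed can repress overlapping sets of messenger RNAs. The assay counted microRNA genes, so protein-coding markers of ciliated cells were not measured here, and the link to that cell type is background.

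The shared seed defines the family, and the mature 5p strands are shown with it in capitals (RefSeq sequences on GRCm38.p6, the mm10 build, 5′ to 3′). Of the 6 members, 5 have an entry in the sequence table, and 4 have a 5p entry. Mir449b is named only.
mmu-miR-449a-5p: uGGCAGUGuauuguuagcuggu
mmu-miR-449c-5p: aGGCAGUGcauugcuagcugg
mmu-miR-34a-5p: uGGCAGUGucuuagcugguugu
mmu-miR-34b-5p: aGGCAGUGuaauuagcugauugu

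All 4 strands carry the same seed, and they differ outside it. Read from the 5′ end without gaps, miR-449a-5p and miR-449c-5p were identical at 18 of 21 positions, miR-449a-5p and miR-34a-5p at 15 of 22, and miR-449a-5p and miR-34b-5p at 10 of 22. Likeness thus spans loci, since miR-449a-5p and miR-34a-5p share their first 9 bases. The order depends on the measure. By longest shared run, miR-449a-5p had 9 bases in common with miR-34a-5p, 9 with miR-34b-5p and 7 with miR-449c-5p. Among 1738 mature sequences searched, no gene outside the family had GGCAGUG as its seed. The motif occurred elsewhere in 4 other mature strands, starting at base 5 or 9, and none of their genes exceeded 1.88 CPM (counts per 1000000 gene counts) in either library.

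The opposite, 3p strands have no seed common to the family (seed in capitals).
mmu-miR-34b-3p: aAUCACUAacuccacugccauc
mmu-miR-34c-3p: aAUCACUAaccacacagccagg
mmu-miR-34a-3p: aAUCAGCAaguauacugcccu
mmu-miR-449a-3p: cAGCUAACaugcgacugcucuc
mmu-miR-449c-3p: cAGUUGCUagcugcacuacccu

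The 3p strands of Mir34b and Mir34c had a seed in common and were identical in their first 10 bases. Those of Mir449a and Mir449c differed in seed and matched at 7 of 22 positions. The tables count reads per gene, so the 5p and 3p strands of a hairpin cannot be told apart in the levels that follow. The mature strands are 21 to 23 bases long, so counts were compared between genes without division by length.

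The 2 hairpins below are the highest member and a neighbour of it on the same chromosome, with both mature strands in capitals (5′ to 3′, as RNA).
Mir449a: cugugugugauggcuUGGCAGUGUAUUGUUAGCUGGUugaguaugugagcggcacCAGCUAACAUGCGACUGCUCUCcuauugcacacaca
Mir449c: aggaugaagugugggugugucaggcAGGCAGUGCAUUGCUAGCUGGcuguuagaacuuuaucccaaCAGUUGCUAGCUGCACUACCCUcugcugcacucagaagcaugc

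In the 5 members with a hairpin entry, the longest run of bases shared with another family hairpin was 11. The longest run shared with any other hairpin in the RefSeq table was 14, between Mir449a and Mir679. Reads that match several loci have a summary line of their own in the tables, and these runs are shorter than a mature strand. The runs count exact matches only, and Mir449b was not compared. How many reads of the members match several loci was therefore not tested.

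On mm10, Mir449a (ENSMUSG00000065575.1) lies on chromosome 13 at 113037534 to 113037624, Mir449b (ENSMUSG00000078027.1) at 113037419 to 113037498 and Mir449c (ENSMUSG00000076146.1) at 113035983 to 113036091. All 3 are on the plus strand within introns of Cdc20b, a gene expressed in multiciliated cells, on the same strand as the host. Mir449b ends 35 bases before Mir449a, and Mir449c lies 1327 bases before Mir449b. Mir34c (ENSMUSG00000065587.1, 51103034 to 51103110) and Mir34b (ENSMUSG00000065492.1, 51103562 to 51103645) lie 451 bases apart on the minus strand of chromosome 9. They are within an intron of Btg4, which is annotated on the opposite strand. Mir34a (ENSMUSG00000065493.1) lies on the plus strand of chromosome 4 at 150068454 to 150068555, where 17 bases overlap an exon of the unclassified gene Gm37795. No read was counted on the opposite strand of any member in either library.

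The tables hold 6376715 gene counts for replicate 1 and 4123748 for replicate 2. Levels are given in CPM, so 1 count is worth 0.157 CPM in replicate 1 and 0.242 CPM in replicate 2, and a count of 0 allows up to 0.470 and 0.727 CPM (3 counts). The 95% intervals are exact (Clopper-Pearson) and, like these limits, cover counting error only. The whole lung profile held the leading microRNAs of its main tissues, with the endothelial Mir126a at 83199 CPM ± 5768 (SD, n = 2), the smooth muscle Mir143 at 71247 ± 1447 and the epithelial Mir429 at 14764 ± 461. Reads matching several loci made up 30.0% and 31.8% of the reads. They are outside the gene counts, so genes with copies at several loci can appear too low. The shares and ranks that follow hold among gene counts, not among all microRNA reads of the lung.

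The first comparison was among the members. The family held 1.58% of gene counts in replicate 1 (95% interval 1.57 to 1.59) and 1.996% in replicate 2 (1.98 to 2.01), a mean of 1.79% ± 0.294 (SD, n = 2). All 6 members had at least 10 counts in each library, as did 347 of the 1973 genes, which are called detected. Nearly all of the family's reads came from a single gene: Mir449a made up 92.3% of them in replicate 1 and 92.4% in replicate 2.

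Mir449a was at 14581 CPM in replicate 1 and 18445 CPM in replicate 2, a mean of 16513 ± 2732 (SD, n = 2). It ranked 15 of 347 detected genes, just below Mir30e (17272 ± 929) and above Mir23a (15403 ± 1553), and both of these lay within its SD. In replicate 1 it was level with Mir429 (14438 CPM), the most abundant epithelial microRNA listed, and in replicate 2 it lay above that gene (15090 CPM). Mir34c followed at 803 and 1080 CPM (941 ± 196), rank 104, and Mir34a at 341 and 339 CPM (340 ± 1.86), rank 140. Mir34c was higher than Mir34a in both libraries, by 2.35-fold and 3.19-fold.

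The remaining members were far lower. Mir34b was at 30.3 and 48.3 CPM (39.3 ± 12.7), Mir449c at 23.2 and 28.9 CPM (26.0 ± 3.99) and Mir449b at 21.3 and 20.6 CPM (20.97 ± 0.506). Their ranks were 237, 251 and 258 of 347, and 31.7%, 27.7% and 25.6% of detected genes lay below them. The order of the first 4 members held beyond the counting intervals in both libraries. Mir34b and Mir449c overlapped within their SDs and within their counting intervals in replicate 1. The counting intervals of Mir449c and Mir449b overlapped in both libraries, whereas their SD ranges did not overlap.

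**Figure D1:**
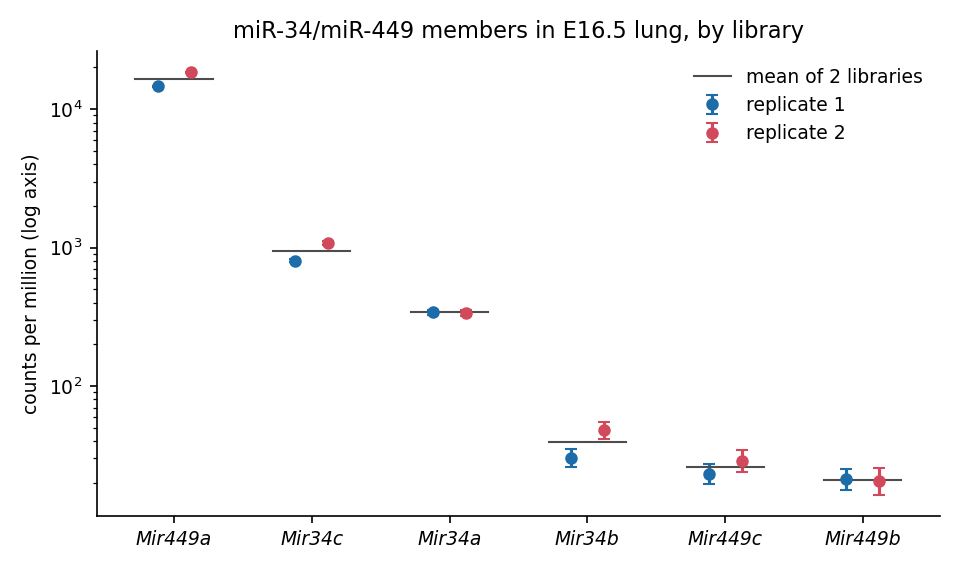
CPM of each member (log axis) in replicate 1 (blue) and replicate 2 (red), with 95% counting intervals as bars and the mean of the 2 libraries as a line. Mir449a stands at 14581 and 18445 CPM, and Mir34b, Mir449c and Mir449b are all below 49 CPM.

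The second comparison was among the 3 loci, taking the sum of the members at each. The Mir449 locus held 14625 and 18494 CPM (16560 ± 2736, SD, n = 2), the Mir34b/c locus 833 and 1128 CPM (981 ± 209), and Mir34a 341 and 339 CPM. The Mir449 locus was 17.6-fold above Mir34b/c in replicate 1 (17.1 to 18.1) and 16.4-fold in replicate 2 (15.9 to 16.9), a mean of 16.98 ± 0.822 (SD, n = 2). Over Mir34a it was 42.8-fold higher in replicate 1 (41.1 to 44.7) and 54.6-fold in replicate 2 (51.8 to 57.6), a mean of 48.7 ± 8.31. The Mir34b/c locus was 2.44-fold (2.32 to 2.57) and 3.33-fold (3.14 to 3.54) above Mir34a. The 3 loci therefore kept 1 order in both libraries, and the intervals of each of the 3 ratios did not overlap between the libraries.

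Within a locus the members were far from equal. Mir449a exceeded Mir449b, whose hairpin gene ends 35 bases upstream of it, by 684-fold (578 to 815) in replicate 1 and 895-fold (724 to 1120) in replicate 2. It exceeded Mir449c, the hairpin printed beside it above, by 628-fold (535 to 743) and 639-fold (534 to 772). These genes lie in the same host and on the same strand. Mir34c exceeded Mir34b by 26.5-fold (23.0 to 30.8) and 22.4-fold (19.4 to 25.9), and the intervals of each of these 3 ratios overlapped between the libraries. How far capture of each sequence during library preparation, or reads that match several loci, set these ratios was not tested.

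**Figure D2:**
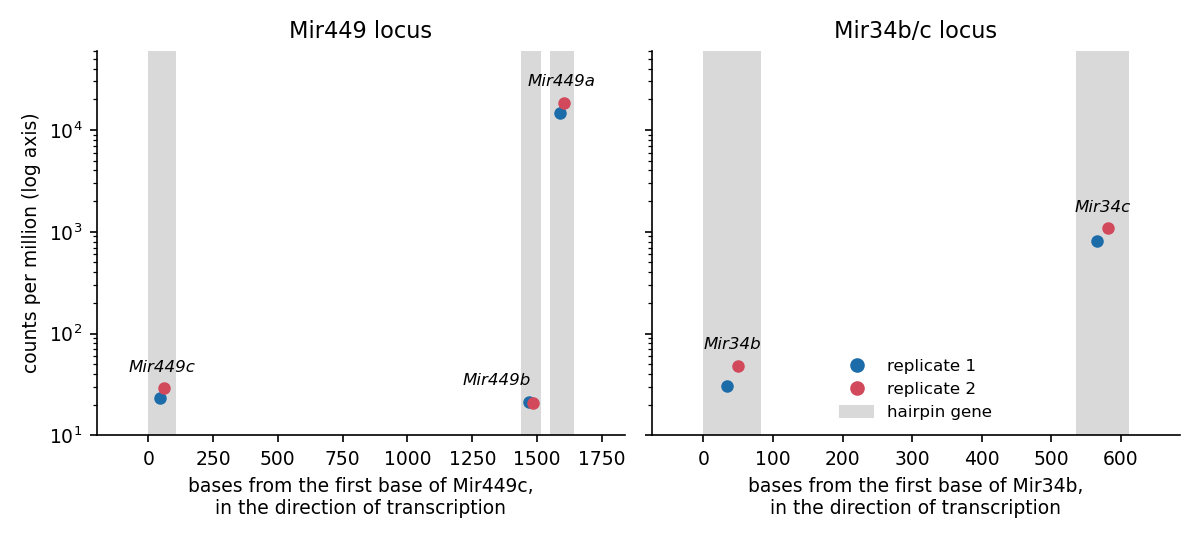
CPM (log axis) against position along the Mir449 and Mir34b/c loci, in bases from the first hairpin in the direction of transcription, with hairpin genes as grey bands and the libraries in blue and red. At each locus the last hairpin in that direction, Mir449a or Mir34c, is the most abundant.

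The third comparison was between the libraries. Mir449a, Mir34c and Mir34b were higher in replicate 2, and no member passed the test in the other direction. Each pool gave 1 library, so the pool and the library preparation cannot be told apart, and in bulk tissue more cells of a type cannot be told apart from more RNA per cell. The counts of a gene were set against the library totals in a two-sided exact binomial test, and p-values were adjusted over all 347 detected genes (Benjamini-Hochberg). This test compares the reads of these libraries, not conditions, and weighs a difference against counting error alone. It called 3 of the 6 members, all higher in replicate 2. Of all detected genes it called 47.0% in either direction, 30.5% as higher in replicate 2 and 16.4% as higher in replicate 1. The share of members called is close to that of all genes, so the number called is no result about the family.

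Mir449a was 1.27-fold higher in replicate 2 (95% interval 1.25 to 1.28), with 92976 counts in replicate 1 and 76062 in the shallower replicate 2 (adjusted p of at most 8.68e-299, exact binomial test, bounded by the smallest p written, 1e-300). Mir34c was 1.35-fold higher (1.29 to 1.40, adjusted p = 6.49e-46, exact binomial test), with 5119 and 4453 counts. Mir34b was 1.59-fold higher (1.30 to 1.95, adjusted p = 1.83e-05, exact binomial test), with 193 and 199 counts. Among detected genes Mir34c ranked 110 in replicate 1 and 98 in replicate 2, Mir34b 247 and 225, and Mir449a 15 and 13.

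Mir34a did not pass the test, at 0.992-fold (0.927 to 1.06, adjusted p = 0.891, exact binomial test), and its interval lies below those of the 3 called members. Mir449c was at 1.24-fold (0.968 to 1.59, adjusted p = 0.147, exact binomial test). Its interval contains both equality and the ratio of Mir449a. Mir449b was at 0.966-fold (0.728 to 1.28, adjusted p = 0.891, exact binomial test), with 136 and 85 counts. The interval of Mir449b also contains equality and the ratio of Mir449a, so the counts of neither gene tell these apart.

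The median log2 ratio of replicate 2 over replicate 1 was 0.33 over the 6 members, and 0.05 over all 347 detected genes. Larger differences than that of Mir449a, in either direction, occurred in 77 detected genes (22.2%), than that of Mir34c in 46 (13.3%) and than that of Mir34b in 24 (6.92%). Low genes vary more by counting, and among the 194 genes at a mean of 100 CPM or more, 18 differed more than Mir449a and 7 more than Mir34c. Among the 22 genes at 10000 CPM or more, Mir449a had the largest absolute log2 ratio by library totals, 0.34. The next was Mirlet7i at -0.23. That limit was chosen after the values were seen, and the lead depends on the scaling. The TMM and DESeq2 factors described below lower the log2 ratio of every gene by a constant. They bring Mir449a to 0.30 and 0.29 and move Mirlet7i further below 0, so the gap between their absolute values narrows.

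**Figure D3:**
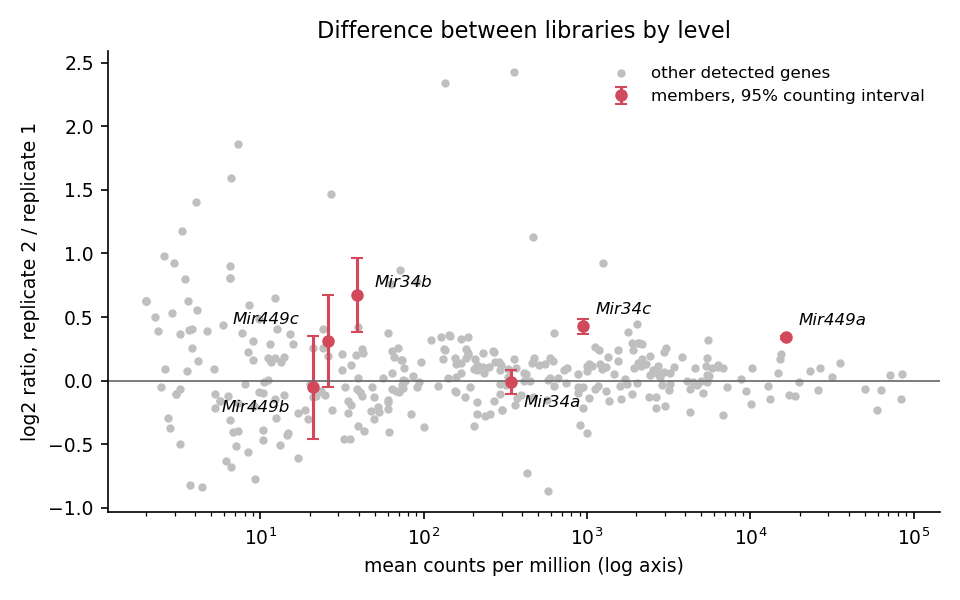
Log2 ratio of replicate 2 over replicate 1 against mean CPM (log axis) for the 347 detected genes, in grey, with the 6 members in red and their 95% counting intervals. Mir449a, Mir34c and Mir34b lie above 0 with their whole intervals, and Mir34a lies at -0.01.

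The call depends on which error is allowed for. The biological coefficient of variation between the libraries was 14.7% (edgeR common dispersion), and edgeR's exact test at that dispersion called 0 members, with 0 of 6 at an unadjusted p under 0.05 and an adjusted p of 1.0 for each. It called 5 of the 347 genes, with 13 at an unadjusted p under 0.05, but the dispersion used there comes from these 2 libraries and includes their difference. The 3 members stayed called under edgeR's TMM factors and DESeq2's size factors, where all called genes split 84 against 74 and 75 against 78 (higher in replicate 2 against replicate 1) in place of 106 against 57. Mir449a was then 0.30 and 0.29 higher on the log2 scale.

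The genes most like Mir449a in log2 ratio, among those at 100 CPM or more, were Mir29a (0.34), Mir328 (0.34), Mir574 (0.35), Mir152 (0.33) and Mir487b (0.32). The likeness is the difference in log2 ratio over 2 libraries, at most 0.0163 for these 5. Of them Mir487b was the most abundant, at 4887 and 6112 CPM, and the others had means below 186 CPM.

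Other epithelial microRNAs had a summed ratio nearer to 1. The epithelial list (the miR-200 family, the miR-183 cluster, Mir203 and Mir205) held 42190 CPM in replicate 1 and 44484 in replicate 2, a ratio of 1.05, against 1.26 for the miR-34/miR-449 family. Of its 10 detected members 6 passed the test as higher in replicate 2 and 2 as higher in replicate 1, against 30.5% and 16.4% of all detected genes, with a median log2 ratio of 0.05. Under TMM scaling 5 members passed as higher in replicate 2 and 4 as higher in replicate 1, and under DESeq2 scaling the sides were equal, at 4 each. Mir203, a microRNA of stratified epithelium, was 1.31-fold higher (1.27 to 1.35) and Mir205, of basal epithelial cells, 1.18-fold higher (1.15 to 1.22). The members higher in replicate 1 were Mir200a, at 0.910-fold in replicate 2 (0.875 to 0.946), and Mir96, at 0.957-fold (0.922 to 0.994). The family's level was 0.374 of that of the epithelial list in replicate 1 and 0.449 in replicate 2. No test was made of this difference between lists. The neuroendocrine list (3 of 4 detected, led by Mir375 at 2614 and 2831 CPM) held 2714 and 2922 CPM.

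MicroRNAs of other tissues differed between the libraries as well. The liver list (3 of 4 detected) held 216 CPM in replicate 1 and 695 in replicate 2. Mir122 of hepatocytes was at 111 and 601 CPM, and the other detected members, Mir192 and Mir194-2, did not pass the test (0.955- and 0.838-fold in replicate 2). The striated muscle list (4 of 7 measured members detected, with Mir1a-1, Mir133a-1 and Mir133a-2 at 0) held 1059 and 1178 CPM, a sum over members that moved in opposite directions. Mir206 of skeletal muscle was 2.19-fold higher in replicate 2. Mir133b was 3.02-fold higher (1.74 to 5.38), on only 21 and 41 counts. Mir208a of heart muscle was at 0.605-fold and Mir208b at 0.891-fold (0.817 to 0.971). The blood list (4 of 5 members measured, with no gene found under the symbol Mir142) held 1763 and 1420 CPM. Mir451a of red cells was at 0.546-fold in replicate 2 and Mir223 of myeloid cells at 1.06-fold. The sum leaves out Mir142b, which is not on the list. That gene was at 1149 and 1258 CPM, 1.09-fold in replicate 2 (1.06 to 1.13). The endothelial list (3 of 3 measured) held 87724 and 79574 CPM, the smooth muscle and mesenchymal list (7 of 7) 81448 and 83699 CPM, and the neural list (0 of 5 measured members detected) 0.470 and 3.88 CPM. Their part in the higher Mir449a, Mir34c and Mir34b of replicate 2 was not tested. Reads that match several loci are outside the gene counts. The levels of genes with numbered copies, as of Mir1a, Mir133a, Mir9 and Mir124a, can therefore be too low, and their values near 0 do not show absence.

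**Figure D4:**
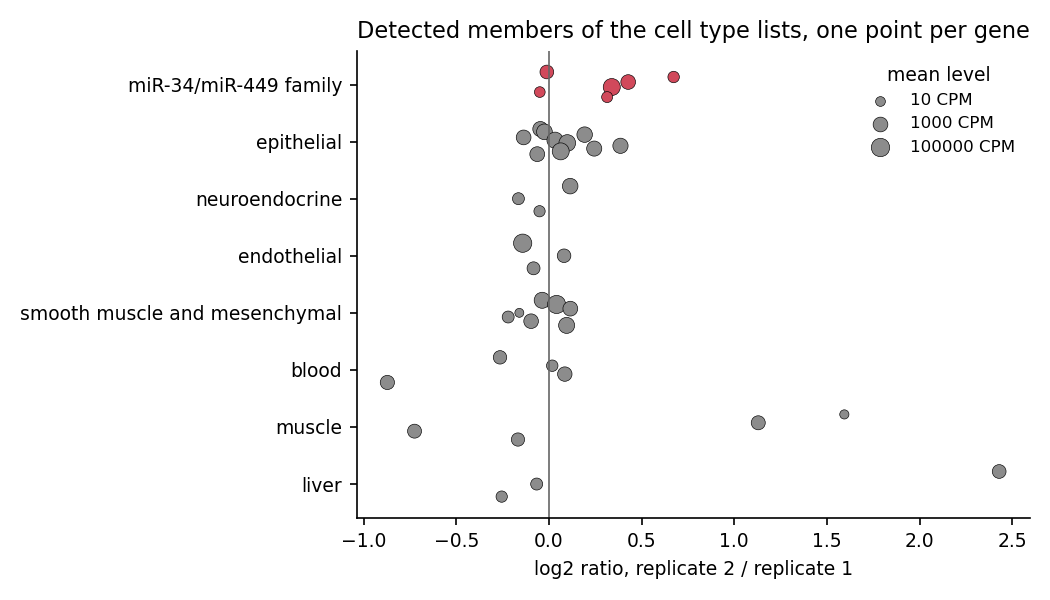
Log2 ratio of replicate 2 over replicate 1 for each detected gene of the miR-34/miR-449 family (red) and of 7 other cell type lists (grey), with point size by mean CPM. Of the family 4 genes lie between 0.31 and 0.67, and the other 2 lie near 0. The farthest point is Mir122 of the liver list, at 2.43.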

How the data were processed

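The authors deposited raw read counts for each microRNA gene, used here from a column that ignores strand. By its values that column is the sum of a sense and an opposite-strand column in all 1973 genes. Assembly mm10 and annotation M4 are named per the file headers. Which aligner and counter were used, and any trimming, is not given in the sources used here. Totals and tests left out the 4 summary lines. Symbols and coordinates (1-based) come from GENCODE M21 on mm10, and 1894 of 1973 identifiers matched.

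CPM, intervals and ratios were computed in Python 3.11.15 (scipy 1.17.1), and scaling factors and dispersion in R 4.3.3 with edgeR 4.0.16 and DESeq2 1.42.0. The two-sided exact conditional binomial test ran over all genes with at least 10 counts in each library, at an adjusted p of 0.05. It was also run on simulated counts with known ratios. These held counting error only, so that run says nothing of spread between libraries. With 1 group there is no test of conditions. The members, lists and tests were chosen with earlier results of these data known. The rule for named genes takes the members, their neighbours in level, the 5 genes closest to Mir449a in log2 ratio and the leading list genes. Mirlet7i, Mir679, Mir322, Mir142b and the list genes that lead no list were named after their values were seen.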

Additional observations from a re-analysis of the deposited data

How the results depend on the processing

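The sense-strand counts, the filter on low counts (at least 1 count in either library, or at least 30 in each), edgeR's TMM factors and DESeq2's size factors left 3 members called, all higher in replicate 2, and changed no member's direction. Over all genes the calls numbered 153 to 160 under these 5 settings, in place of 163, and with DESeq2's size factors the larger side turned (75 higher in replicate 2 against 78). The exact test of edgeR, at a common dispersion, called 0 members, and 5 genes in all, 5 higher in replicate 2 and 0 higher in replicate 1. By its construction it adds a spread between libraries to the counting error. The family's share was 0.878% of all reads the tables account for, whose denominator includes reads outside gene counts, in place of 1.79% of gene counts. Without the most abundant gene, Mir322, it was 1.95%. With 1 replicate left out, the share was 1.58% or 1.996%, and the Mir449 locus was 16.4- or 17.6-fold above Mir34b/c. Depth limits Mir449b, with 136 and 85 counts, and Mir449c, with 148 and 119.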
